A study of Mus musculus with 8 samples.

Results

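The 10 genes described here encode members of the TNF receptor superfamily, and were taken by gene symbol from 2 deposited expression tables of mouse CD8+ T cells that list 49490 and 55291 genes. They are Tnfrsf9, Tnfrsf4, Tnfrsf18, Cd27, Tnfrsf14, Tnfrsf8, Tnfrsf1b, Tnfrsf1a, Fas and Tnfrsf10b, and all 10 were listed and passed the filter on low values in both tables. PolyA RNA came from CD8+ T cells of spleens and lymph nodes. In the first experiment, Trim28-/- cells (labelled TRIM28 knockout) were set against Trim28 fl/fl cells (labelled WT), both activated in vitro. In the second, WT cells that received an antibody against IL-2 were set against untreated WT cells, both held for 3 days with antibodies to CD3 and CD28. Each of the 4 groups had 2 libraries, and those with the antibody, whose columns carry no number, are called blocked replicates A and B. The strain, age and Cre driver are not given in the sources used here, nor is whether the 2 libraries of a group came from separate mice or cultures. Any p-value below is set against the variation between such library pairs, and that variation may be technical.

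TNF receptor superfamily proteins bind trimeric ligands of the TNF family at the cell surface through cysteine-rich repeats and have no enzyme activity of their own. One class recruits TRAF adaptor proteins, which switch on NF-kB and kinase signalling. On activated T cells this class includes the costimulatory receptors 4-1BB (Tnfrsf9), OX40 (Tnfrsf4), GITR (Tnfrsf18), CD27, CD30 (Tnfrsf8) and HVEM (Tnfrsf14), together with TNFR2 (Tnfrsf1b). The other class carries an intracellular death domain and can start apoptosis through FADD and caspase-8, as do Fas, DR5 (Tnfrsf10b) and, by way of TRADD, TNFR1 (Tnfrsf1a).

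Of the 10 genes, 6 lie on chromosome 4, 2 on chromosome 6, Tnfrsf10b on chromosome 14 and Fas on chromosome 19 (GENCODE M21, GRCm38, the assembly also called mm10). Tnfrsf4 (chr4:156013843-156016612) and Tnfrsf18 (chr4:156026164-156028895) are neighbours on the plus strand, 9.55 kb apart with 0 protein-coding genes between them. Tnfrsf1b and Tnfrsf8 are likewise next to each other on the minus strand, 20.3 kb apart. Promoter sequences of 9 of the 10 genes were found in the RefSeq table (GRCm38.p6). Those of the pair of neighbours that moved apart with the antibody, and those of the 2 receptors lower in both experiments, are shown as the 250 bases before the RefSeq start, 5′ to 3′ on the gene's own strand. RefSeq starts differ from the GENCODE gene bounds. By GENCODE, most of the Tnfrsf18 window, with its match, lies within the gene. Both Tnfrsf9 windows lie within that gene too (chr4:150914562-150946102). For Tnfrsf9, which has 2 annotated starts, the downstream one is shown, and the window of the upstream start (chr4:150919905-150920154) held a match to none of the motifs searched. Capitals mark matches to TTCNNNGAA (the STAT motif) or TGANTCA (the AP-1 motif).
Tnfrsf4 (chr4:156013445-156013694): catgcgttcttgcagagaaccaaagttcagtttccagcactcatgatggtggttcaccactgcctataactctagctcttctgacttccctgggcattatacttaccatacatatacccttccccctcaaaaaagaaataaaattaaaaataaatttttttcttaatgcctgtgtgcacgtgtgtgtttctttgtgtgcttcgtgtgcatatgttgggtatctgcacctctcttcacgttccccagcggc
Tnfrsf18 (chr4:156026072-156026321): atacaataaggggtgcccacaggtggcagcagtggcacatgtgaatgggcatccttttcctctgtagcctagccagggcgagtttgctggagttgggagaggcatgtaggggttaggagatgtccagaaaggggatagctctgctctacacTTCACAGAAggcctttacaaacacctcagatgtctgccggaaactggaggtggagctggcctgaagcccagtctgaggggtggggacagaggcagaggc
Tnfrsf9 (chr4:150927749-150927998): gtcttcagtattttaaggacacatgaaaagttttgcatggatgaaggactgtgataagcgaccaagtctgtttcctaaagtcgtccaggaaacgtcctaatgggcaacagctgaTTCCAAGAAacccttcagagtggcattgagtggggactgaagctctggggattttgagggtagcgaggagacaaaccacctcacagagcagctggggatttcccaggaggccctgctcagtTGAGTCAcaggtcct
Fas (chr19:34290409-34290658): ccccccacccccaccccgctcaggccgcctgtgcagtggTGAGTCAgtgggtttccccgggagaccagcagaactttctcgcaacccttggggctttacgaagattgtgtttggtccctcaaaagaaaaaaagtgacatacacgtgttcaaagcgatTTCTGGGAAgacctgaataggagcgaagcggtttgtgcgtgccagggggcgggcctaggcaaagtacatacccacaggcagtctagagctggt

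The Tnfrsf9 window held TTCCAAGAA, beginning 136 bases before the start, and TGAGTCA, beginning 15 bases before it. In the Fas window TTCTGGGAA began 93 bases and TGAGTCA 211 bases before the start, while Tnfrsf18 held TTCACAGAA 99 bases before it. The Tnfrsf4 window held a match to neither motif. Over the 10 member promoters (2 of them of Tnfrsf9), TTCNNNGAA was found on either strand in 5 and TGANTCA in 3, while a kappa B motif, GGGA and TTCC set 2 bases apart, was found in 0. Among all 32851 promoter windows of the same length the shares were 7.02%, 6.75% and 1.21%. A match is a stretch of letters, and binding was not measured. CpG counts ranged from 2 in the Tnfrsf18 and Tnfrsf14 windows to 12 in those of Tnfrsf1b and Tnfrsf8, around a median of 6 over all windows.

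Library depth was even, at 13222831 to 13469789 reads in the first experiment and 16618750 to 17069569 in the second. Trim28 itself had 415 and 458 normalised reads in the knockout libraries, against 4262 and 4323 in the control libraries. With the antibody Trim28 was higher, at 7926 and 8528.5, against 5774 and 5919.8 in untreated libraries (log2 fold change 0.49). The part of that rise in the receptor results was not tested. The T cell markers Cd3d, Cd3e, Cd3g, Cd8a, Cd8b1 and Cd2 were present in all 8 libraries, with summed levels of 1447.9 to 1478 CPM (reads scaled to library size) in knockout, 1523 to 1551 in control, 1447 to 1483 in anti-IL-2 and 1967 to 1972 in untreated libraries. In the knockout Cd3e (log2 fold change 0.35) and Cd8a (0.25) were higher. Cd3g (-0.10), Cd8b1 (-0.48) and Cd2 (-0.61) were lower there, and Cd3d was not called. With the antibody Cd2 fell most (-1.81). Cd3d, Cd3g, Cd8a and Cd8b1 fell by less (-0.28 to -0.54), and Cd3e was not called. Cd4 stood under 0.6 CPM in every library and the NK cell gene Ncr1 at 0, and the B cell gene Ms4a1 had at most 0.117 CPM. Summed over whole lists, the 5 NK cell markers gave 29.3 and 32.4 CPM in knockout and 90.3 and 85.6 in control libraries. In the second experiment they gave 38.1 and 34.0 in anti-IL-2 and 173 and 177 in untreated libraries. Of these markers, Klrd1 was lower in both experiments (log2 fold changes of -2.75 in the knockout and -2.66 with the antibody). Eomes was higher in the knockout (0.60) and lower with the antibody (-1.14). The 7 B cell markers gave 177 in both knockout libraries and 165 and 164 in control libraries, and 258 and 276 in anti-IL-2 and 213 and 214 in untreated libraries. Most of that sum was Ighm, which was higher in both experiments (log2 fold changes of 0.46 in the knockout and 0.55 with the antibody). Other members went the other way, with Cd79a at -2.08, Cd79b at -1.66 and H2-Ab1 at -1.65 in the knockout and H2-Ab1 at -4.96 with the antibody, where Cd79b was not called (0.38). In the knockout experiment Cd79a and Cd79b passed the filter on low values only through the control libraries. The 8 myeloid and dendritic cell markers gave 41.9 and 41.5 CPM in knockout and 29.1 and 33.0 in control libraries. In the second experiment they gave 33.6 and 32.6 in anti-IL-2 and 29.2 and 30.5 in untreated libraries. This sum joins genes that moved in opposite directions. Zbtb46 was higher in both experiments (log2 fold changes of 1.44 in the knockout and 1.503 with the antibody). Cd68 was lower in both (-0.76 and -2.25), and Itgam was not called in either. The part of these lists in the receptor results was not tested. These are bulk samples, in which fewer cells carrying a transcript and less of it per cell cannot be told apart.

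Per length of exon, Tnfrsf4 was the most abundant of the 10 in all 4 groups, with 551 ± 10.7 RPKM (reads per kilobase of exon, scaled to library size) in knockout and 477 ± 13.4 in control cells (SD, n = 2 each). It reached 646 ± 54.6 RPKM in anti-IL-2 and 712 ± 13.8 in untreated cells. The tables were scaled separately, so levels are compared within an experiment. Tnfrsf9 came second in knockout (247 ± 2.61 RPKM), control (332 ± 4.20) and untreated cells (384 ± 4.75), but in anti-IL-2 cells (113 ± 2.48) it ranked below Cd27 and beside Tnfrsf18, whose libraries overlapped its own. Tnfrsf18 and Cd27 stood at 158 and 98.4 RPKM in knockout, 115 and 82.4 in control, 114 and 154 in anti-IL-2, and 87.2 and 146 in untreated cells. Fas and Tnfrsf1b took the fifth and sixth places, between 13.9 and 39.6 RPKM. Tnfrsf14, Tnfrsf10b and Tnfrsf1a lay between 3.02 and 10.8 RPKM, and Tnfrsf8 was last at 0.252 to 0.689. Other neighbours in this order lay close without overlapping, such as Fas at 22.5 ± 0.549 and Tnfrsf1b at 21.9 ± 0.257 RPKM in untreated cells, or Tnfrsf1a at 5.68 ± 0.0730 and Tnfrsf10b at 5.61 ± 0.0388 in control cells, apart by about the spread of the libraries. Tnfrsf9 supplied 22.2% and 21.6% of the summed level of the 10 genes in knockout libraries, against 30.1% and 31.1% in control libraries. In anti-IL-2 libraries its share was 10.6% and 10.03%, against 27.5% and 27.6% in untreated libraries. No library of a treated group reached the range of its own comparison group for this share.

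**Figure D1:**
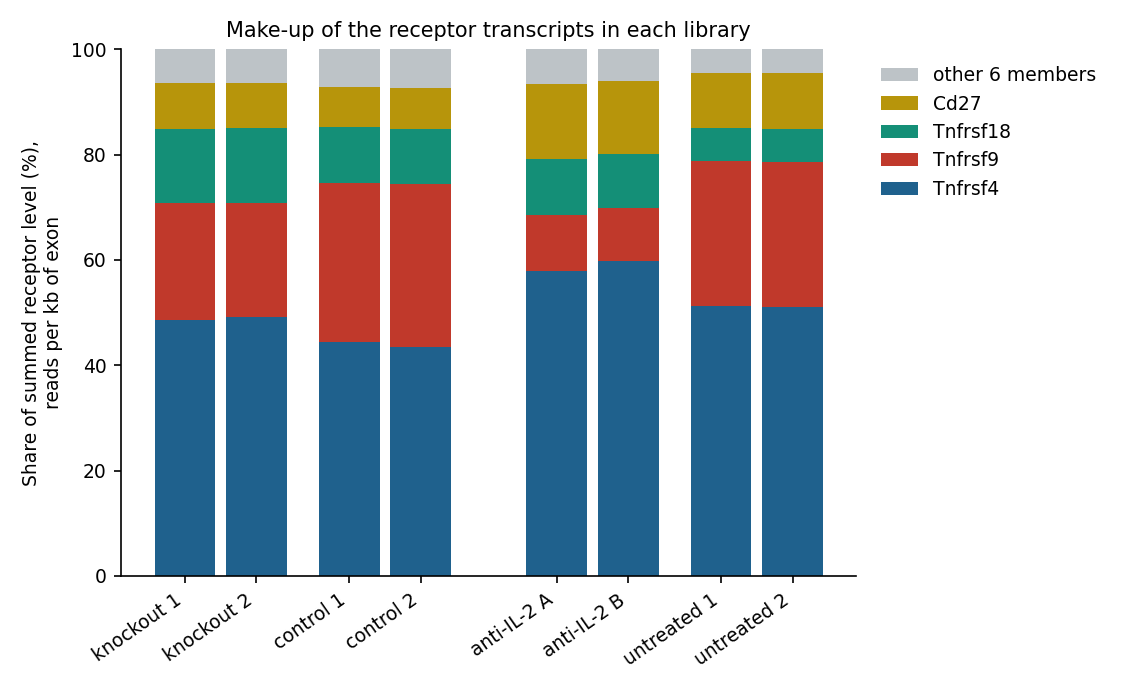
Stacked bars give each receptor's percentage of the summed level of the 10 genes (reads per kilobase of exon) in each of the 8 libraries, with the 6 least abundant genes combined. The Tnfrsf9 segment is 21.6 to 22.2% in knockout and 30.1 to 31.1% in control libraries, and 10.03 to 10.6% in anti-IL-2 and 27.5 to 27.6% in untreated libraries.

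The first comparison asked which genes depend on TRIM28 in activated CD8+ T cells. Of the 10 receptors, 6 were higher in the knockout and 2 lower at an adjusted p under 0.05 (limma on log2 normalised values, Benjamini-Hochberg adjustment over all genes tested), while Tnfrsf8 and Tnfrsf1a were not called. Among all genes tested, 32.9% were called higher and 28.2% lower, 61.0% in either direction. The median log2 fold change of the 10 was 0.23, beside 0.031 over all genes tested. Knockout and control libraries did not overlap for any of the 10, with knockout above control in 7 and below it in 3. Of all genes tested, 82.3% were separated in this way, 43.4% upward and 38.9% downward. The second comparison asked which genes IL-2 controls. There 4 of the 10 were higher with the antibody and 4 lower, with Cd27 and Tnfrsf14 not called, beside 31.4% and 28.9% of all genes tested (60.3% in either direction). The median of the 10 was 0.10, beside 0.018 over all genes, and 9 of the 10 had separated libraries, 5 upward and 4 downward, beside 79.3% of all genes, 41.1% upward and 38.2% downward. Across both experiments 3 receptors were higher in each (Tnfrsf18, Tnfrsf1b and Tnfrsf10b), a pattern shared by 22.5% of the 12428 genes tested in both. Both Tnfrsf9 and Fas were lower in each, as were 18.1% of those genes. Only Tnfrsf4 of the 10 was higher in the knockout and lower with the antibody, a combination held by 3.48% of genes, and the reverse combination was found in 0 of the 10 and in 2.11% of genes.

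**Figure D2:**
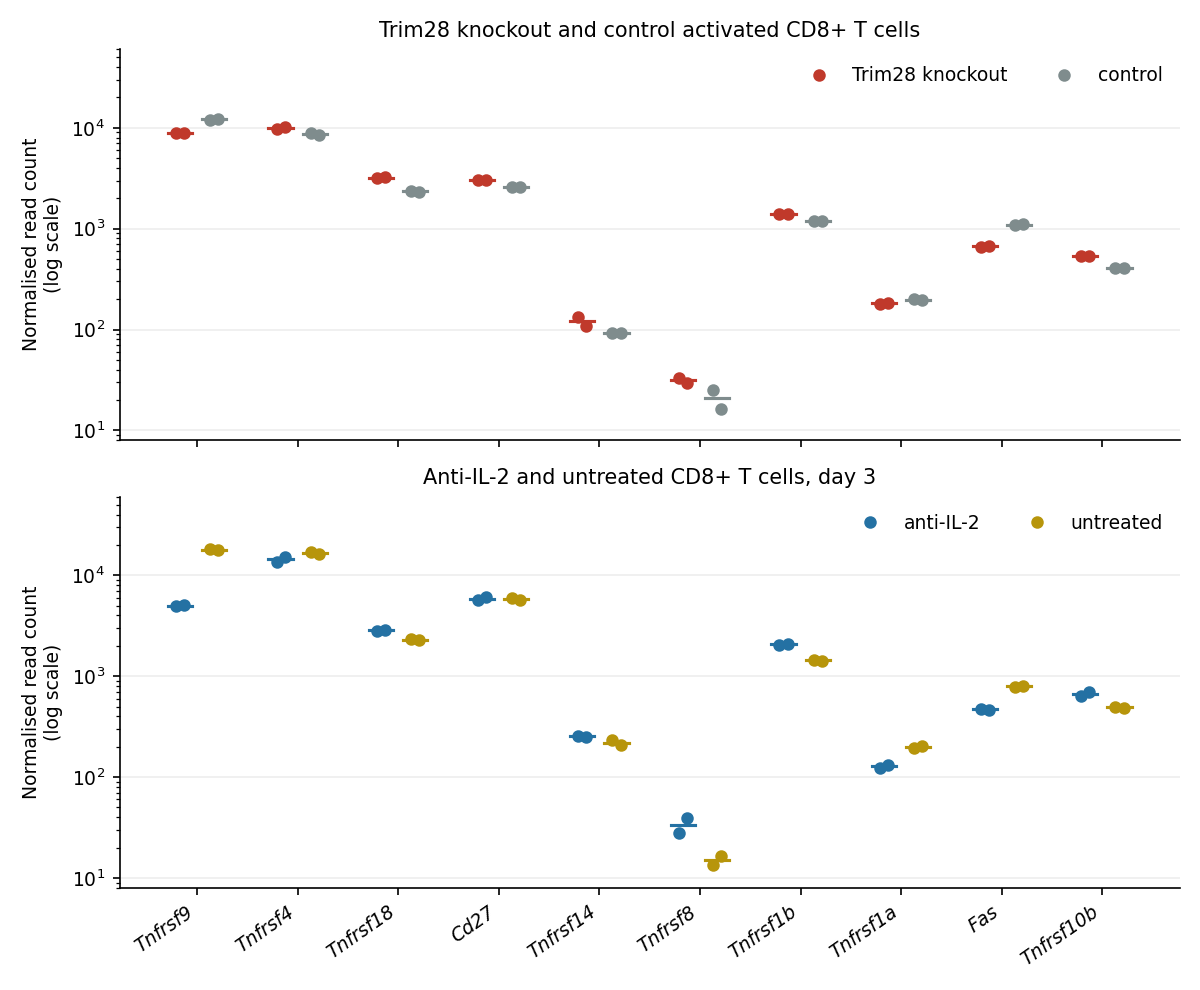
Normalised read counts on a log axis for the 10 receptor genes, with a point for each library and a line at the mean of each group of 2. In the lower panel the anti-IL-2 points of Tnfrsf9 (4922 and 5109) lie well under the untreated ones (18231 and 17715), whereas those of Cd27 overlap.

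Tnfrsf9 encodes 4-1BB, a receptor induced on activated CD8+ T cells that supports their survival and expansion. With the antibody against IL-2 it held 4922 and 5109 normalised reads, against 18231 and 17715 in untreated cells. Both anti-IL-2 libraries were far under both untreated ones. This gave a log2 ratio of -1.84 (SE 0.049, adjusted p = 2.32e-16), a 3.58-fold lower level, and 3.93% of tested genes had a lower value. In knockout cells it held 8929.7 and 8804 normalised reads, against 12026 and 12208 in control cells. This was a fall too, of smaller size and again without overlap, with a log2 fold change equal to -0.45 (SE 0.023, adjusted p = 4.11e-05). The knockout effect was less negative than the antibody effect, by 1.39 on the log2 scale (SE 0.051, adjusted p = 7.29e-10), the largest such difference among the 10. By distance between profiles over the 8 libraries, centred within each experiment, the genes most like Tnfrsf9 were Ralgds, Csrnp1 and Errfi1 (distances 0.072, 0.11 and 0.12). Their log2 fold changes were -0.47, -0.49 and -0.36 in the knockout and -1.85, -1.74 and -1.88 with the antibody. These genes were picked on the same values, so that like fold changes follow from the choice.

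Tnfrsf4 encodes OX40, a costimulatory receptor that prolongs T cell responses. It held 9787 and 10069 normalised reads in knockout cells, against 8918 and 8546 in control cells. Both knockout libraries were above both control ones, by a small margin, and the gene was called higher (log2 fold change 0.19, SE 0.031, adjusted p = 0.00315). With knockout replicate 1 left out the adjusted p was 0.0564, and with knockout replicate 2 left out it was 0.0765, so that either removal ended the call. Upper-quartile scaling kept the call at a log2 fold change of 0.11. With the antibody the libraries held 13487 and 15294, against 17050.4 and 16406 in untreated cells. Here the anti-IL-2 libraries were both the lower ones and differed more between themselves (log2 fold change -0.22, SE 0.057, adjusted p = 0.00256). This call was lost without a filter (adjusted p = 0.128), without untreated replicate 1 (0.173) and without untreated replicate 2 (0.0840), and the fold change was -0.31 without blocked replicate B and -0.13 without blocked replicate A. The 2 effects of opposite sign differed by 0.41 (SE 0.074, adjusted p = 0.000837).

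Tnfrsf18 encodes GITR, a costimulatory receptor found at high levels on regulatory T cells and induced on other T cells by activation. It rose in both experiments. Knockout cells held 3150.2 and 3221 normalised reads, against 2387 and 2303 in control cells, and both knockout libraries were the higher ones (log2 fold change 0.44, SE 0.032, adjusted p = 0.000134). Anti-IL-2 cells held 2785 and 2901, against 2312 and 2264 in untreated cells. These groups did not overlap either (log2 fold change 0.31, SE 0.053, adjusted p = 4.45e-05). The difference between the 2 effects, 0.13, was not called (95% interval 0.0032 to 0.26, adjusted p = 0.0932), although it was without blocked replicate B (adjusted p = 0.0304). An antisense transcript, Gm16008, overlaps 27.2% of the exon bases of Tnfrsf18, and unstranded reads there could not be assigned. Gm16008 itself had 35.5 and 40.2 normalised reads in knockout and 34.5 and 47.6 in control libraries, and 21.96 and 32.6 in anti-IL-2 and 44.7 and 34.0 in untreated libraries.

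The adjacent genes Tnfrsf18 and Tnfrsf4 therefore moved together in the knockout and apart with the antibody. Per length of exon there were 18.5 and 17.0 Tnfrsf18 reads for each 100 of Tnfrsf4 in anti-IL-2 libraries, against 12.1 and 12.4 in untreated libraries. The ratio was 28.8 and 28.7 in knockout libraries, against 24.0 and 24.1 in control libraries. Foxp3, the defining factor of regulatory T cells, stood at 43.3 and 49.0 normalised reads in knockout against 4.06 and 5.07 in control libraries, and at 8.59 and 9.59 in anti-IL-2 against 58.2 and 50.5 in untreated libraries. Its log2 fold change was 3.09 in the knockout and -2.45 with the antibody, and its part in the Tnfrsf18 and Tnfrsf4 results was not tested. In each experiment Foxp3 passed the filter on low values only through the group in which it was higher. The 6 CD4 and regulatory T cell markers (Cd4, Foxp3, Cd40lg, Ikzf2, Il4 and Zbtb7b) summed to 23.0 and 24.1 CPM in knockout, 57.0 and 59.7 in control, 134 and 126 in anti-IL-2, and 78.3 and 80.5 in untreated libraries. Cd40lg, Ikzf2 and Zbtb7b were lower in the knockout (log2 fold changes of -2.95, -0.84 and -1.27), where Foxp3 was higher. With the antibody Cd40lg (0.49) and Ikzf2 (0.90) were higher and Zbtb7b (-0.51) lower. Cd4 and Il4 were too low to be tested.

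Cd27, the receptor for CD70 on naive and memory T cells, held 3021 and 3027 normalised reads in knockout cells, against 2579 and 2571 in control cells. The libraries of each group were nearly equal and the groups apart (log2 fold change 0.23, SE 0.027, adjusted p = 0.000767; 0.15 with upper-quartile scaling). With the antibody the counts were 5655 and 6041, against 5972 and 5747 in untreated cells. These overlapped, and the fold change of -0.0033 had a 95% interval of -0.11 to 0.10. The knockout and antibody effects differed by 0.24 (SE 0.058, adjusted p = 0.00635).

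Tnfrsf14 encodes HVEM, which binds LIGHT (Tnfsf14) and also the inhibitory receptors BTLA and CD160. It held 133 and 108 normalised reads in knockout cells, against 92.3 and 92.2 in control cells. It was called higher (log2 fold change 0.37, SE 0.12, adjusted p = 0.0378), but not with upper-quartile scaling (adjusted p = 0.0779), with DESeq2 (0.393), without a filter (0.145), without knockout replicate 1 (0.123), without control replicate 1 (0.156) or without control replicate 2 (0.155). Without knockout replicate 1 the fold change was 0.22. Anti-IL-2 cells held 258 and 249, against 231 and 209 in untreated cells. These did not overlap but were not called (log2 fold change 0.21, 95% interval -0.011 to 0.42, adjusted p = 0.0939).

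Tnfrsf8, the gene of the activation receptor CD30, was the rarest of the 10, with between 13 and 41 reads per library. It held 27.7 and 39.3 normalised reads in anti-IL-2 cells, against 13.5 and 16.5 in untreated cells. The higher libraries were the anti-IL-2 ones (log2 fold change 1.09, SE 0.30, adjusted p = 0.00357). The call was lost without blocked replicate B (adjusted p = 0.0506), without a filter (0.0622) and with DESeq2 (0.0663), and in the authors' deposited table the adjusted p was 0.112. The 29 and 41 reads behind the anti-IL-2 values have exact 95% Poisson intervals of 19.4 to 41.6 and 29.4 to 55.6, and the 13 and 16 untreated reads intervals of 6.92 to 22.2 and 9.15 to 26.0 (counting error only). In knockout cells it held 33.5 and 29.4, against 25.4 and 16.2 in control cells. That was not called (log2 fold change 0.60, 95% interval 0.0013 to 1.21, adjusted p = 0.0761), and leaving out 1 library moved it from 0.30 without control replicate 2 (adjusted p = 0.255) to 0.91 without control replicate 1, where it was called (adjusted p = 0.0306). Adding 1 before taking logs understates the change of a gene at this level.

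The genes of both TNF receptors moved in opposite directions with the antibody. Tnfrsf1b encodes TNFR2, the TRAF-binding receptor of T cells, and held 2038 and 2087 normalised reads in anti-IL-2 cells, against 1457 and 1417 in untreated cells (log2 fold change 0.52, SE 0.056, adjusted p = 1.49e-07). Tnfrsf1a encodes the death domain receptor TNFR1, and held 123 and 132, against 195 and 202 in untreated cells (log2 fold change -0.63, SE 0.12, adjusted p = 0.000154). For each gene the groups were well apart. Per length of exon, Tnfrsf1b exceeded Tnfrsf1a 11.2 and 10.7 times in anti-IL-2 libraries, against 5.06 and 4.76 times in untreated libraries. The ratio was 5.22 and 5.202 in knockout libraries, against 4.03 and 4.16 in control libraries. In knockout cells Tnfrsf1b held 1392 and 1413, against 1186 and 1200.2 in control cells, and was higher without overlap (log2 fold change 0.23, SE 0.033, adjusted p = 0.00173; 0.15 with upper-quartile scaling). Tnfrsf1a stood at 181 and 184 in knockout cells, against 199.8 and 196 in control cells, and was not called (log2 fold change -0.11, 95% interval -0.27 to 0.046, adjusted p = 0.176). With upper-quartile scaling that value was -0.19 and passed (adjusted p = 0.0437). Both genes responded differently to the knockout and to the antibody. The knockout effect on Tnfrsf1a was less negative than the antibody effect, by 0.52 (SE 0.13, adjusted p = 0.00727). For Tnfrsf1b the knockout effect minus the antibody effect was -0.29 (SE 0.060, adjusted p = 0.00220).

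Fas, the death receptor that limits expanded T cell populations, fell in both experiments. It held 656 and 680.3 normalised reads in knockout cells, against 1085 and 1108 in control cells, a 1.64-fold lower level and the largest change among the 10 in that experiment (log2 fold change -0.71, SE 0.041, adjusted p = 5.55e-05). Anti-IL-2 cells held 471 and 465, against 789 and 807 in untreated cells, a 1.71-fold lower level (log2 fold change -0.77, SE 0.071, adjusted p = 2.09e-08). All treated libraries were clearly the lower ones. The 2 effects differed by 0.055, with a 95% interval of -0.11 to 0.22 (adjusted p = 0.586). Nearest to Fas by profile over the 8 libraries were Tap1, Etv3 and Ncoa4 (distances 0.084, 0.099 and 0.11), with log2 fold changes of -0.74, -0.72 and -0.66 in the knockout and -0.75, -0.84 and -0.80 with the antibody. Here too the likeness follows from picking genes on these values.

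Tnfrsf10b encodes DR5, a death domain receptor for TRAIL, and went the other way from Fas in both experiments. Knockout cells held 533 and 536 normalised reads, against 409 and 412 in control cells (log2 fold change 0.38, SE 0.045, adjusted p = 0.000782). With the antibody the counts were 635 and 697, against 498 and 488 in untreated cells. The anti-IL-2 libraries were both higher (log2 fold change 0.43, SE 0.076, adjusted p = 7.06e-05). The effects differed by -0.051, with a 95% interval of -0.24 to 0.14 (adjusted p = 0.682).

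**Figure D3:**
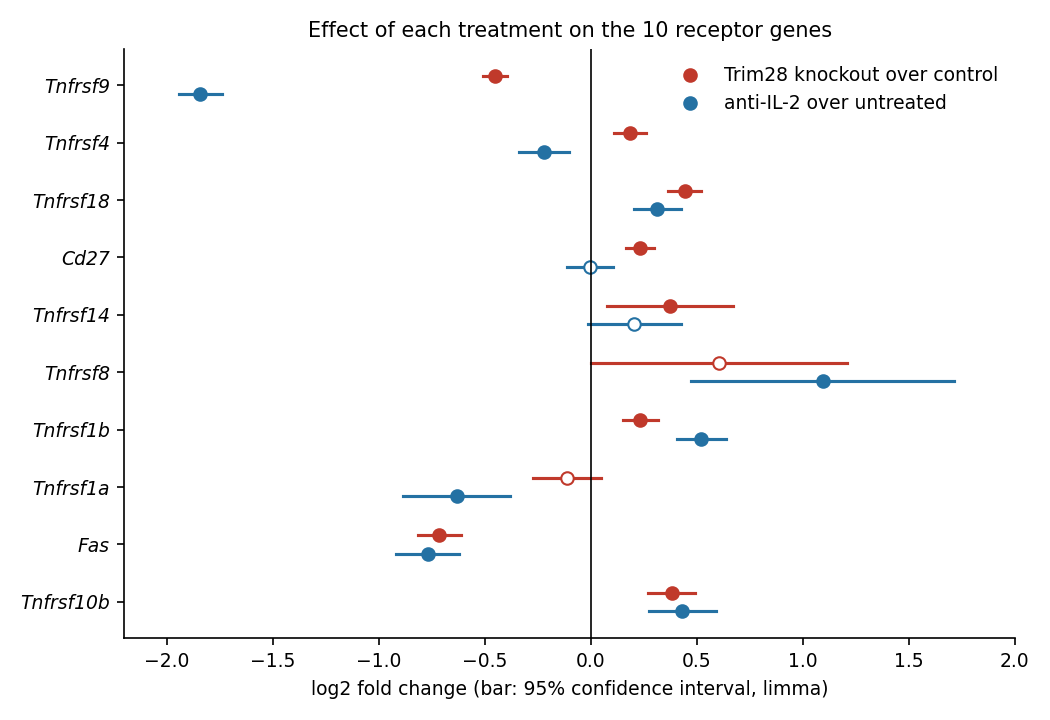
Log2 fold changes of the 10 receptor genes for Trim28 knockout over control (upper of each pair) and anti-IL-2 over untreated (lower), with 95% confidence intervals from limma and open circles where the adjusted p was not under 0.05. Tnfrsf9 with the antibody lies farthest to the left at -1.84, Fas is near -0.7 to -0.8 in both, and Tnfrsf4 falls on opposite sides of 0.

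In all, 5 of the 10 receptors differed between their antibody effect and their knockout effect, beside 41.7% of all genes tested for such a difference. They were Tnfrsf9, Tnfrsf4, Tnfrsf1a, Tnfrsf1b and Cd27. The direction is given for the knockout effect. It was called the more positive one in 4 of the 10, beside 24.7% of all genes tested. It was called the more negative one in 1 of the 10, Tnfrsf1b, beside 17.0% of those genes. At an adjusted p under 0.05, 7 receptors passed in each experiment in the authors' deposited table, and all of them were called here. The calls made here only were Tnfrsf14 in the knockout (adjusted p = 0.269 in the authors' deposited table) and Tnfrsf8 with the antibody. Without knockout replicate 1 the number called higher in the knockout was 4 in place of 6.

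The ligands of these receptors were measured in the same libraries. Of 13 ligand genes and other binding partners 12 were tested (Tnfsf18, the GITR ligand, was too low), and 7 were higher and 4 lower in the knockout, with a median log2 fold change of 0.37, beside the 32.9% and 28.2% of all genes given above. With the antibody 4 were higher and 8 lower, with a median of -0.82, beside 31.4% and 28.9% of all genes. Fasl fell with its receptor, to 153 ± 5.07 normalised reads in knockout cells against 449.7 ± 5.199 in control cells (SD, n = 2 each), and to 139 ± 7.67 in anti-IL-2 cells against 826 ± 39.0 in untreated cells. Tnfsf10, which encodes TRAIL, rose with Tnfrsf10b, with log2 fold changes of 2.93 in the knockout and 1.07 with the antibody. Tnfsf9, the ligand of 4-1BB, was higher in both while its receptor was lower in both, at 0.69 in the knockout and 0.43 with the antibody. Cd70, the ligand of CD27, rose by 2.62 and 1.80. Of the TNF receptors' ligands, Tnf had log2 fold changes of -0.24 in the knockout and -1.62 with the antibody, and Lta 0.77 and -2.34. For the OX40 ligand gene Tnfsf4 the values were 0.072, not called, and -0.58, and for the CD30 ligand gene Tnfsf8 -0.56 and -0.97. Among partners of HVEM, Btla rose in both (0.50 and 1.51), Tnfsf14 fell in both (-0.30 and -0.67), and Cd160 was higher in the knockout and lower with the antibody (0.25 and -1.08).

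Genes that relay the receptor signal moved in both directions. Of 13 TRAF adaptors and ubiquitin ligases, 6 were higher and 4 lower in the knockout (median 0.12), and 2 were higher and 6 lower with the antibody (median -0.13). With 61.0% of all genes called in the knockout and 60.3% with the antibody, the counts for these adaptors, and those for the death-inducing and NF-kB genes below, are to be read against those shares. Traf1 is an adaptor of the TRAF-binding receptors that NF-kB induces. It rose in the knockout to 10576 ± 112, against 7400.1 ± 18.5 in control cells (log2 fold change 0.52), and was not called with the antibody (-0.059). Tank, a TRAF-binding regulator, fell in both (-0.92 and -0.40). Of 8 death-inducing and necrosome genes, 4 were higher and 3 lower in the knockout (median 0.23), and 2 were higher and 4 lower with the antibody (median -0.27). Fadd, the adaptor that links Fas to caspase-8, rose in both (0.93 and 0.75), while the kinase genes Ripk1 (-0.83 and -0.92) and Ripk3 (-0.47 and -0.61) fell in both. The caspase gene Casp8 was higher in the knockout and lower with the antibody (0.65 and -0.21), and Cflar, the inhibitor of caspase-8 activation, fell in both (-0.12 and -0.43).

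Of 13 genes of NF-kB and its kinases, 3 were higher and 5 lower in the knockout (median -0.041), and 5 were higher and 6 lower with the antibody (median -0.075), beside 61.0% and 60.3% of all genes called. Rela, a main NF-kB subunit, fell with the antibody to 6070 ± 492, against 11374 ± 42.3 in untreated cells (log2 fold change -0.91). In the knockout Rela was not called (0.042). Nfkb1 was lower in the knockout and with the antibody (-0.19 and -0.57), and Nfkb2 was higher in both (0.38 and 0.26). Among 12 inhibitors and feedback genes, 7 were higher and 2 lower in the knockout (median 0.089), and 3 were higher and 5 lower with the antibody (median -0.11). Of the genes of inhibitors that hold NF-kB in the cytoplasm, Nfkbia (0.40 and 0.66) and Nfkbie (1.16 and 1.31) were higher in both experiments, while Nfkbib was higher in the knockout (0.64) and lower with the antibody (-0.36). Of the genes of nuclear members of that family, Bcl3 was higher in the knockout (0.37) and lower with the antibody (-1.03), and Nfkbiz was lower in both (-0.55 and -0.26).

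**Figure D4:**
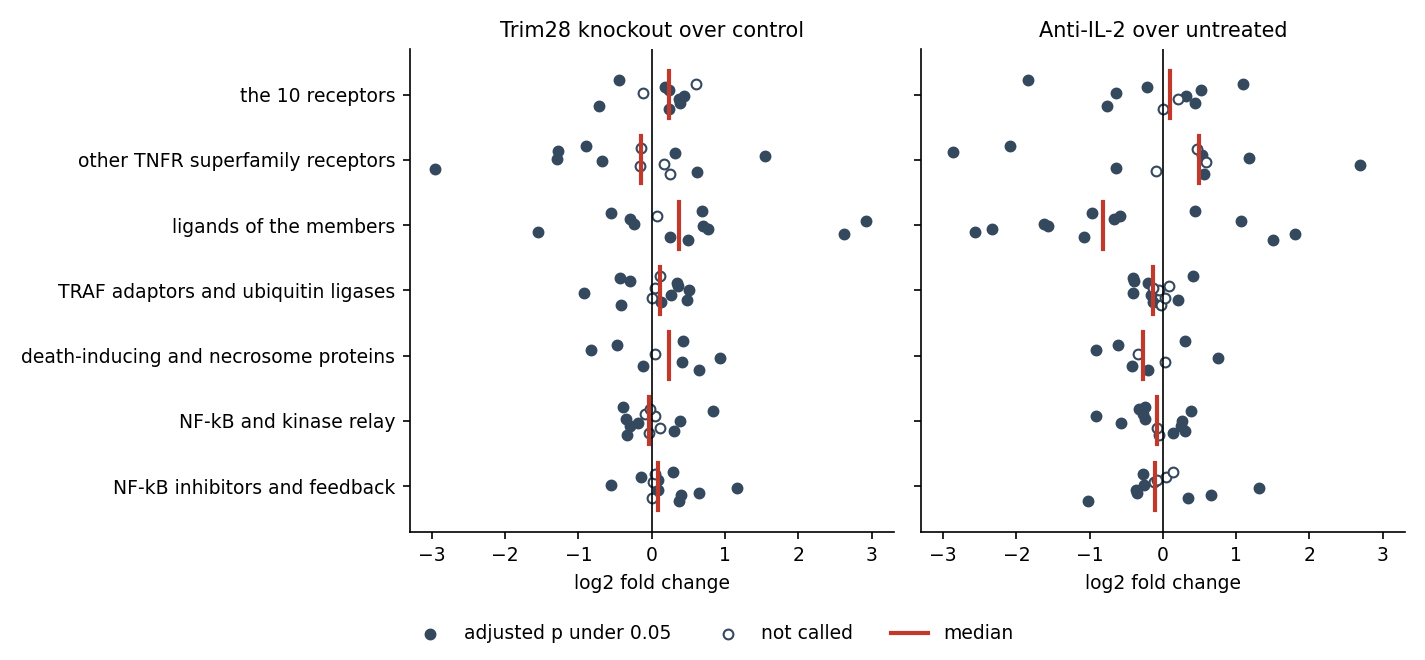
Log2 fold changes of the tested genes of each list (filled, adjusted p under 0.05; open, not called) with the list's median as a vertical bar, for knockout over control on the left and anti-IL-2 over untreated on the right. The median of the ligand list stands at 0.37 in the knockout and at -0.82 with the antibody.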

How the data were processed

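RNA-seq libraries of CD8+ T cells were analysed from 4 groups of 2. The tools named for the authors' work, per the submitters' processing notes, are HISAT2 2.2.1, Trim Galore 0.4.4, DESeq2 and StringTie 2.1.4, with the mm10 build. The read counter, strand setting and annotation are not given in the sources used here. The values the authors deposited are a normalised signal, gene read counts divided by 1 size factor per library within each table, and 100% of values were whole multiples of 1 read within a tolerance of 0.001. The authors' deposited log2 fold changes (comparison group over treated group) and adjusted p-values served only for comparison.

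Genes reaching 10 in 2 or more libraries (15415 and 13978) entered as log2 (value + 1), on which changes of low genes look smaller than they are, and were tested per experiment with limma 3.58.1 (mean-variance trend, R 4.3.3). P-values were adjusted by Benjamini and Hochberg over all genes tested and called under 0.05. Whether the 2 effects differ was tested with 1 model over the 8 libraries, each effect being taken within its own table. Alternatives included edgeR 4.0.16 (TMM, quasi-likelihood) and DESeq2 1.42.0 on the recovered reads. The fits were run on simulated counts with the same dispersion for all genes. Of changes of 0.5 on the log2 scale, 82% were recovered in the knockout setting and 86% in the antibody setting. Of changes of 1, 100% were recovered in each. Smaller changes, and changes in genes with as few reads as Tnfrsf8, were not simulated. Within each group the 2 libraries differed by more than counting noise (chi-square per degree of freedom 1.32 to 3.87). The anti-IL-2 columns carry no replicate number and are called A and B. Among gene names of the knockout experiment, 24 were altered to dates. RPKM used exon lengths of GENCODE M21. The level of 1 marker gene is not reported here. Members and lists were chosen with earlier results of these data known. From each list up to 4 called genes with the largest change were to be named. This was not followed throughout. Traf5, Traf6, Rbck1, Traip, Tab1, Tab2, Tab3, Rel and Nfkbid met the rule and are not described above. Genes beyond the rule were named after their values were seen. The genes most like a member were the 3 nearest to the one with the largest change in each experiment.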

Additional observations from a re-analysis of the deposited data

How the results depend on the processing

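Of 407 alternative values for 30 member results, 385 kept their direction and their side of the threshold, and 21 of the 30 results did so under every alternative run. Members called higher in the knockout numbered 4 to 6 and lower 2 when 1 library was left out, and 3 to 4 were called in each direction with the antibody. Over all genes, DESeq2 called 2846 higher and 2660 lower in the knockout in place of 5065 and 4344, and without 1 library the counts were 3212 to 4103 higher and 2787 to 3193 lower (3212 and 2787 without knockout replicate 1, 3234 and 2824 without knockout replicate 2). The cause was not tested. Cd27 with the antibody, never called, turned to 0.0042 with TMM scaling and ranged from -0.051 to 0.044 without 1 library, and the difference of effects for Tnfrsf10b, also never called, from -0.12 to 0.017. With a replicate block, 7 members were higher and 2 lower in the knockout, Tnfrsf8 being added (adjusted p = 0.0439), and 4881 genes were higher and 4197 lower. The labels give no more than a shared number, and same-numbered libraries deviated together by a correlation of 0.013 across genes. No block could be fitted for the antibody, whose columns carry no number. Where a group was left with 1 library, that library was assumed to vary like the others. Depth limits Tnfrsf8 most.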

Other observations

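Several receptors of the superfamily outside the 10 changed by more than most of them. Tnfrsf13c, the gene of the BAFF receptor best known from B cells, held 1056 and 1152 normalised reads in anti-IL-2 cells, against 165 and 174 in untreated cells (limma, log2 fold change 2.69, adjusted p = 1.89e-15). In knockout cells it held 35.5 and 25.5, against 48.7 and 48.7 in control cells, and was lower (-0.68, adjusted p = 0.0223). Among B cell markers with the antibody, Ighm was higher (0.55), H2-Ab1 was lower (-4.96), Cd79b was not called (0.38, adjusted p = 0.186) and Ms4a1 was at or near 0, and their part in the Tnfrsf13c result was not tested. Tnfrsf21, which encodes the death domain receptor DR6, rose in both experiments, to 229 and 208 in knockout cells against 68.0 and 80.1 in control cells, and to 603 and 604 in anti-IL-2 cells against 265 and 269 in untreated cells. Tnfrsf23 and Tnfrsf26, related mouse receptor genes between which reads may be shared, fell in both. Tnfrsf22, which lies between them on chromosome 7, was higher in both (log2 fold changes of 0.32 and 0.53). Tnfrsf23 held 83.7 and 98.0 in knockout cells against 225 and 216 in control cells. It held 5.73 and 6.71 in anti-IL-2 cells against 44.7 and 59.7 in untreated cells, and there passed the filter only through the untreated libraries. Tnfrsf26 held 434 and 373 in knockout cells against 776 and 720 in control cells, and 57.3 and 57.5 in anti-IL-2 cells against 259 and 235 in untreated cells. Tnfrsf11b, the gene of the decoy receptor osteoprotegerin, held 5.91 and 6.86 in knockout cells against 55.8 and 56.8 in control cells (-2.96), and Tnfrsf19 held 8.86 and 5.88 in knockout cells against 19.3 in both control libraries (-1.30). Both passed the filter on low values only through the control libraries, a way of passing that favours falls. Both are counted among the 5 lower receptors below. In all, 3 of 12 tested receptors outside the 10 were higher in the knockout and 5 lower (median log2 fold change -0.15), beside 32.9% and 28.2% of all genes, and 4 of 10 were higher with the antibody and 3 lower (median 0.49), beside 31.4% and 28.9%.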
